A study of Mus musculus with 6 samples.

Results

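Ribosomal protein pseudogenes are genomic copies of ribosomal protein genes that are annotated as not coding for the protein. They were taken here as every gene whose symbol begins with Rpl or Rps and ends in -ps with or without a number, which gave 300 of the 55416 genes counted, 189 named after proteins of the large ribosomal subunit and 111 after proteins of the small subunit. The symbol before -ps was taken as the parent gene, which gave 62 families, 61 of them with a parent gene in the files. The 3 control samples were oligodendrocyte precursor cells of Pdgfra-Cre:Ift88 fl/wt; RosaEYFP mice and the 3 cKO samples were the same cells of Pdgfra-Cre:Ift88 fl/fl; RosaEYFP mice, all isolated from cortex at postnatal day 11. Both groups therefore carried Cre under the Pdgfra promoter, the EYFP reporter and at least a single floxed copy of Ift88, which encodes an intraflagellar transport protein of the primary cilium. Each library was made from a pool of 4 to 6 mice, and p-values here reflect only how far these pools varied. The p-values come from the quasi-likelihood test of edgeR and were adjusted by Benjamini-Hochberg over all genes tested. Rpl27a-ps1 is described before the others because it was chosen by its difference between control and cKO counts in earlier results of these same data.

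The ribosome is built from ribosomal RNA and many small proteins, each encoded by its own gene, and cells make large amounts of these messenger RNAs. Processed pseudogenes arise when such a messenger RNA is copied into DNA and inserted elsewhere in the genome, which leaves a copy without introns and often with the end of the poly(A) tail. Ribosomal protein genes are among the parents with the most such copies in mammals. Many copies keep nearly the whole coding sequence of the parent, so short reads can match several places in the genome and the assignment of a read to a copy or to its parent is uncertain. Of the 300 pseudogenes, 289 were annotated with a single exon.

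The 3' mRNA-Seq chemistry reads a tag near the end of each transcript, and the counts of all genes summed to 11773548 to 13909236 in 5 libraries and to 568509 in cKO replicate 2. Levels are given in CPM, counts relative to the sum of all counts of a library. Where a gene had 0 counts, its level could still have reached 0.216 to 0.255 CPM in the 5 deeper pools, whereas the limit was 5.28 CPM for cKO replicate 2. Such limits and all intervals cover counting error only, because copies of a molecule made by PCR are counted as reads of their own unless removed, and the headers name no such removal. Ift88, the targeted gene, had 143, 32 and 167 counts in control pools and 1, 0 and 305 in cKO pools, each given in the order of replicates 1 to 3 as throughout. These counts do not check the genotypes, since the floxed exons are not given and the tags of this chemistry may fall elsewhere in the gene. Of 10 fixed markers of oligodendrocyte precursors, 6 had a count in any library. Sox10, Tnr, Pcdh15 and Gpr17 were at 0 in all 6 libraries, and Olig1 and Olig2 had counts only in cKO replicate 3 (32 and 67).

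Rpl27a-ps1 was high in every control library and nearly absent from every cKO library. Its parent Rpl27a encodes a protein of the large subunit. Rpl27a-ps1 (ENSMUSG00000061488) is a single exon of 448 bases on chromosome 10 at 61145609 to 61146056 (GRCm39, plus strand), within no other gene and overlapping no other exon. It had 2072, 2611 and 1710 counts in control pools and 2, 2 and 2 in cKO pools. All controls were far above all cKO libraries, and the groups did not overlap. Scaled to library totals this was 152, 205 and 126 CPM in control pools and 0.144, 3.52 and 0.17 CPM in cKO pools. The means were 161 ± 40.1 CPM and 1.28 ± 1.94 CPM (SD, n = 3), with 0.157 CPM in the cKO group without cKO replicate 2. With counts and totals summed over pools, the ratio of control to cKO was 700 (95% counting interval 321 to 1907). Without cKO replicate 2 it was 1027 (401 to 3770). These ratios rest on 6 and 4 cKO counts and weight each pool by its depth, so cKO replicate 2 has little weight. Their intervals leave out the spread between pools.

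Rpl27a itself did not follow this pattern in the deeper libraries. Rpl27a (ENSMUSG00000046364, chromosome 7 at 109118354 to 109121574, GRCm39) had 613, 1037 and 411 counts in control pools and 480, 0 and 713 in cKO pools. cKO replicates 1 and 3 lay inside the range of the controls, and the 0 belonged to the shallow library. Its log2 fold change, cKO against control, was -0.73 (SE 1.72, edgeR adjusted p = 1) with all 6 libraries and -0.15 (SE 0.60, edgeR adjusted p = 1) without cKO replicate 2. Of the counts of Rpl27a-ps1 and Rpl27a together, Rpl27a-ps1 held 77.2%, 71.6% and 80.6% in the controls. In cKO replicates 1 and 3 it held 0.415% (exact 95% binomial interval 0.0503 to 1.49%) and 0.28% (0.0339 to 1.01%). In cKO replicate 2 the pair had only the 2 counts of the pseudogene. The other copy, Rpl27a-ps2 on chromosome 14 (108929626 to 108930075, GRCm39), had 19, 4 and 26 counts in control pools and 3, 1 and 9 in cKO pools, and its groups overlapped.

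**Figure D1:**
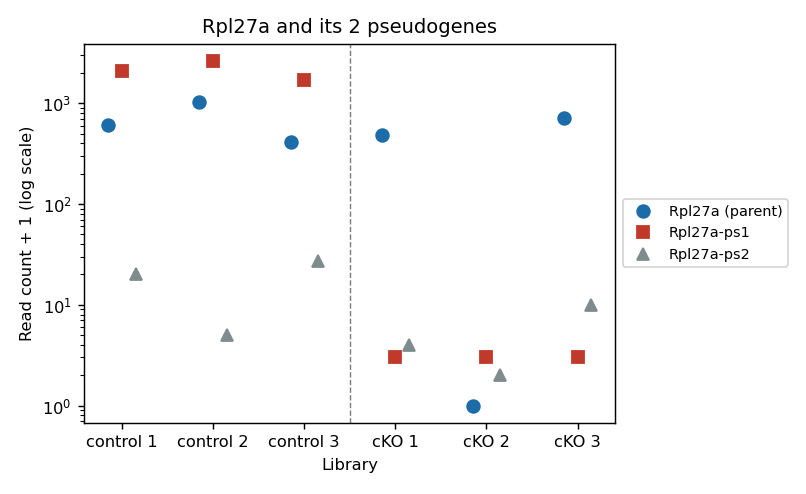
Read count plus 1 on a log axis (vertical) for Rpl27a and its 2 pseudogenes in the 3 control and 3 cKO libraries (horizontal), with a point for each gene and library. Rpl27a-ps1 (squares) lies at 1710 to 2611 counts in control pools and at 2 in each cKO library, while Rpl27a (circles) has 411 to 1037 counts in control pools and 480 and 713 in cKO replicates 1 and 3.

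The annotated neighbours of Rpl27a-ps1 had few counts. Within 20000 bases lay Prf1, which encodes perforin, with 0 counts in all 6 libraries, and Pald1 on the minus strand, with 74, 0 and 54 counts in control pools and 20, 0 and 24 in cKO pools. Neither held a level near the 1710 to 2611 control counts of the pseudogene. The transcript model of Rpl27a-ps1 matched the Rpl27a transcript at 433 of 448 bases (96.7%). Of its 50-base stretches, 76.2% occurred in no other transcript model and 13.8% occurred in Rpl27a, and every 100-base stretch was particular to it. The last 90 bases of the Rpl27a coding sequence are shown beside the copy to show how alike the pair is near the end of the copy, with 2 bases that differ. They are not the end of the parent transcript model used, which is 1158 bases long with its coding end at base 520. The last 300 bases of that model share no 50-base stretch with a copy, and other ends of Rpl27a transcripts were not compared. Capitals mark the bases that differ, T382C and G402A, with the parent's base before the position and the copy's base after it, counted from the start of the parent's coding sequence (GENCODE M21 transcript models on GRCm38, 5′ to 3′).

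Rpl27a-ps1: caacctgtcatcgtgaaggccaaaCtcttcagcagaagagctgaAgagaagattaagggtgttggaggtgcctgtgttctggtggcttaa
Rpl27a: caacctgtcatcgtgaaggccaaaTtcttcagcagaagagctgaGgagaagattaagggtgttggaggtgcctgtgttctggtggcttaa

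The fitted values that had singled out Rpl27a-ps1 are given as a description. With all 6 libraries its log2 fold change was -7.83 (SE 2.48, edgeR adjusted p = 0.644). Without cKO replicate 2 it was -9.92 (SE 0.65, edgeR adjusted p = 0.00992), where it was the only gene of 14562 that passed. With the replicate number as a block, its edgeR adjusted p without that library was 0.0982. With all 6 libraries its edgeR adjusted p was 0.152 with RLE size factors, 0.55 with upper-quartile factors and 0.386 without a filter, its limma-voom adjusted p was 0.0238, and DESeq2 gave none.

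Counts were spread over many pseudogenes but concentrated in few. At least 1 count in any library was found for 251 of the 300, and 49 had none. A pseudogene is called detected here at 20 or more counts in at least 1 library, a limit that 126 reached. The other 125 had a highest count of 1 to 19. Among pseudogenes with any count, 49.8% stayed under 20, against 18.5% of all genes, 25.9% of the other genes with a -ps symbol and 18.1% of the 79 ribosomal protein genes. Just inside the limit, at highest counts of 20 to 25, lay Rpl7a-ps4, Rpl31-ps12, Rpl21-ps9, Rps18-ps3, Rpl7a-ps14 and Rpl23a-ps1. Just under it, at 15 to 19, lay 9 pseudogenes, among them Rps4l-ps, Rpl5-ps2 and Rpl17-ps7.

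Before libraries were brought to equal totals, fewer pseudogenes carried counts in cKO pools than in the controls. With at least 1 count there were 213, 219 and 210 in control pools and 197, 73 and 197 in cKO pools. With 20 or more there were 100, 107 and 99 in control pools and 73, 22 and 92 in cKO pools, so the groups did not overlap by either count. Among all genes, 12640, 12068 and 13283 had 20 or more in control pools and 10695, 1520 and 13262 in cKO pools, which overlapped. Among the 5 deeper libraries, cKO replicate 1 had the highest total and cKO replicate 3 the lowest. With every library thinned to 568509 counts, 110, 127 and 109 pseudogenes had a count in control pools and 93, 73 and 111 in cKO pools, and the groups overlapped. Over all genes, the thinned libraries held 12786, 12291 and 13348 genes in control pools and 11030, 3651 and 13439 in cKO pools.

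The 25 highest pseudogenes by mean CPM in the deeper libraries held 76.5% of all pseudogene counts there. Of these, 13 were named after large subunit proteins and 12 after small subunit proteins. The lowest of them had a mean of 172 CPM, against 163 CPM for the next, Rpl9-ps9. Rpl27a-ps1, averaged over both groups, stood at rank 33.

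**Figure D2:**
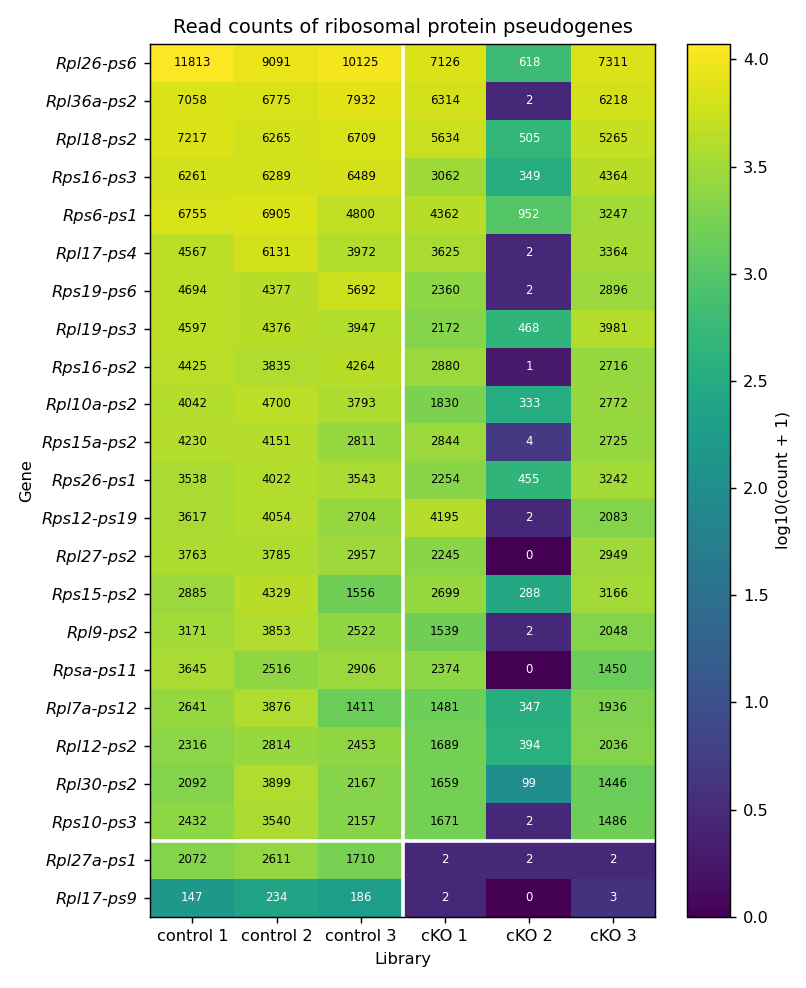
Read counts (numbers in the cells, colour on a log10 scale of count plus 1) of 21 of the 25 highest pseudogenes and, below the white line, Rpl27a-ps1 and Rpl17-ps9, in the 3 control and 3 cKO libraries. The 21 have 1411 to 11813 counts in each of the 5 deeper libraries, while cKO replicate 2 divides them into 10 with at most 4 counts and 11 with at least 99.

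Among the copies of large subunit genes, Rpl26-ps6 had many counts and its parent few. Rpl26 encodes a protein near the exit of the nascent peptide tunnel. Rpl26-ps6 had 11813, 9091 and 10125 counts in control pools and 7126, 618 and 7311 in cKO pools, while Rpl26 had 0, 1 and 0 against 0, 0 and 29. The parent was thus at or near 0 in 5 libraries in which the copy had 618 to 11813 counts. In CPM the groups of Rpl26-ps6 overlapped, with cKO replicate 2 highest at 1087 CPM. Rpl36a-ps2 had 7058, 6775 and 7932 counts in control pools and 6314, 2 and 6218 in cKO pools. Its parent Rpl36a, an X-linked gene, had at most 6 counts in any library. The copy lies within Ddah1 on the same strand.

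Rpl18-ps2 differed from these in that its parent was also well counted. It had 7217, 6265 and 6709 counts in control pools and 5634, 505 and 5265 in cKO pools, against 2304, 2077 and 1526 and 1241, 0 and 1348 for Rpl18. Its share of the pair was 75.1 to 81.5% in control pools and 79.6 to 81.9% in cKO replicates 1 and 3, so these ranges overlapped. Rpl17-ps4, a copy of a gene for a protein that lines the peptide tunnel, had 4567, 6131 and 3972 counts in control pools and 3625, 2 and 3364 in cKO pools, while Rpl17 had at most 7. Rpl9-ps2 had 3171, 3853 and 2522 counts in control pools and 1539, 2 and 2048 in cKO pools, and Rpl9 had 0 in all 6. The controls of Rpl17-ps4 and of Rpl9-ps2 were above all their cKO libraries.

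Further large subunit copies among the 25 were Rpl19-ps3, Rpl10a-ps2, Rpl27-ps2, Rpl7a-ps12, Rpl12-ps2 and Rpl30-ps2, with mean levels of 172 to 293 CPM in the deeper libraries. Rpl10a and Rpl12 encode proteins of the mobile stalks of the large subunit. Rpl10a-ps2 had 4042, 4700 and 3793 counts in control pools and 1830, 333 and 2772 in cKO pools, and Rpl10a had 984, 375 and 378 against 55, 1 and 235. Rpl12-ps2 had 2316, 2814 and 2453 against 1689, 394 and 2036, and Rpl12 had at most 112. In both the copy had more counts than the parent in every library. Rpl30-ps2 was the exception, with 2092, 3899 and 2167 counts in control pools and 1659, 99 and 1446 in cKO pools beside 10547, 14689 and 9096 and 7072, 994 and 7169 for Rpl30. It held 9.06 to 21% of the pair.

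Among the copies of small subunit genes, Rps16-ps3 was the highest. Rps16 encodes a protein whose tail reaches the decoding site. Rps16-ps3 had 6261, 6289 and 6489 counts in control pools and 3062, 349 and 4364 in cKO pools. The sister copy Rps16-ps2 had 4425, 3835 and 4264 counts in control pools and 2880, 1 and 2716 in cKO pools. The controls of Rps16-ps2 were above all cKO libraries in CPM, whereas Rps16-ps3 was highest in cKO replicate 2, at 614 CPM against 459 to 493 CPM in the controls. Rps16 itself had at most 9 counts in any library.

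Rps6-ps1, a copy of the gene for the small subunit protein that is phosphorylated by S6 kinase, was the highest pseudogene in cKO replicate 2. It had 6755, 6905 and 4800 counts in control pools and 4362, 952 and 3247 in cKO pools. In CPM the groups overlapped, since cKO replicate 2 was the highest library at 1675 CPM against 276 to 541 CPM in the other 5. Rps6 had 1, 3 and 1 counts in control pools and 1, 0 and 1 in cKO pools. Rps19-ps6, whose parent gene is mutated in an inherited anaemia, had 4694, 4377 and 5692 counts in control pools and 2360, 2 and 2896 in cKO pools. Its share of the pair with Rps19 was 94.6 to 98.3% in control pools and 86.8% and 91.1% in cKO replicates 1 and 3, without overlap. Other pairs did not overlap either, as Rpl29-ps2, lower in cKO (63.7 to 75.7% against 20.8% and 44.3%). Rps2-ps6 was higher (77.2 to 92% against 99.4% and 96.5%). Such pairs were not counted, and nothing is read from a single pair.

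Further small subunit copies among the 25 were Rps15a-ps2, Rps26-ps1, Rps12-ps19, Rps15-ps2, Rpsa-ps11 and Rps10-ps3. Rps10 encodes a protein that is marked with ubiquitin on stalled ribosomes, and it had 0 counts in all 6 libraries. Rps10-ps3 had 2432, 3540 and 2157 counts in control pools and 1671, 2 and 1486 in cKO pools. Rps12-ps19 was the only one of the 25 with its highest deeper-library count in a cKO library, 4195 in cKO replicate 1. It had 3617, 4054 and 2704 in control pools and 2083 in cKO replicate 3. Scaled to library totals, control replicate 2 was the highest of these, since cKO replicate 1 had the larger total.

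Across families, the highest copy usually had more counts than its parent. Of the 53 families with a detected copy and a parent in the files, the highest copy exceeded the parent in every deeper library in 34 and stayed below it in each of them in 10, with no constant order in the other 9. The parent had under 20 counts in each deeper library in 14 families. In 5 of them (Rpl35, Rpl38, Rpl39, Rpl9 and Rps10) the parent was at 0 in all 6 libraries. Counted by pseudogene, 56 of 125 detected copies with a parent were above it in every deeper library and 29 were below it in each. Summed over families, the copies held 65.7%, 66.1% and 67.8% of the counts of copies and parents in control pools and 64.3%, 69.3% and 65% in cKO pools, and the groups overlapped.

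**Figure D3:**
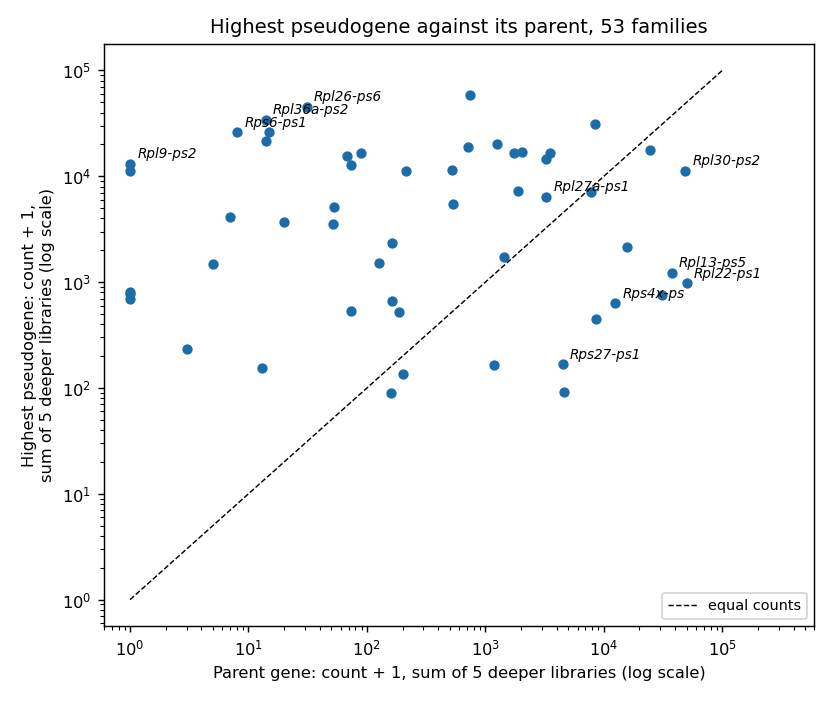
Count plus 1 of the highest pseudogene of each of 53 families (vertical) against count plus 1 of its parent gene (horizontal), each summed over the 5 deeper libraries, on log axes, with a point for each family and a dashed line of equal counts. The pseudogene lies above the line in 39 families, among them Rpl26-ps6 and Rpl9-ps2, and Rpl22-ps1 and Rpl30-ps2 lie below it.

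Among the 10 parents above their highest copy in each deeper library were Rpl13, Rpl22, Rpl30, Rpl34, Rplp0, Rps27, Rps4x and Rps7. Rpl22 summed to 50008 counts in the deeper libraries and Rpl22-ps1 to 973. Rps7 summed to 31108 and Rps7-ps2 to 761. Rplp0, which forms the base of the acidic stalk, summed to 8614 and Rplp0-ps1 to 446. Of 29 families with 2 or more detected copies, the highest held at least 90% of the copies' counts in 12. The Rpsa family was the most even, with 9 copies of which Rpsa-ps11 held 31.5%, and Rpl7a had 8 detected copies of 13. By contrast Rpl31 and Rps12 had 24 copies each, of which 6 were detected in each family.

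Copies without a count shared more sequence with other transcripts than copies with counts. Over the 298 pseudogenes that could be aligned, the median identity to the parent transcript was 96.1%. It was 95% for detected copies and 98% for the 49 copies without a count. The median share of 50-base stretches found in no other transcript model was 73.6% among the 126 detected copies, 54.7% among the 125 with highest counts of 1 to 19 and 2.59% among the 49 without a count. A copy with no such stretch of its own was rare among detected copies (5 of 126) and common among copies without a count (22 of 49, 10 of them copies of Rps12). The sources used here do not give the read length, so these stretches describe the sequences and not the reads. These values are a description over pseudogenes that share parents and sequence.

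**Figure D4:**
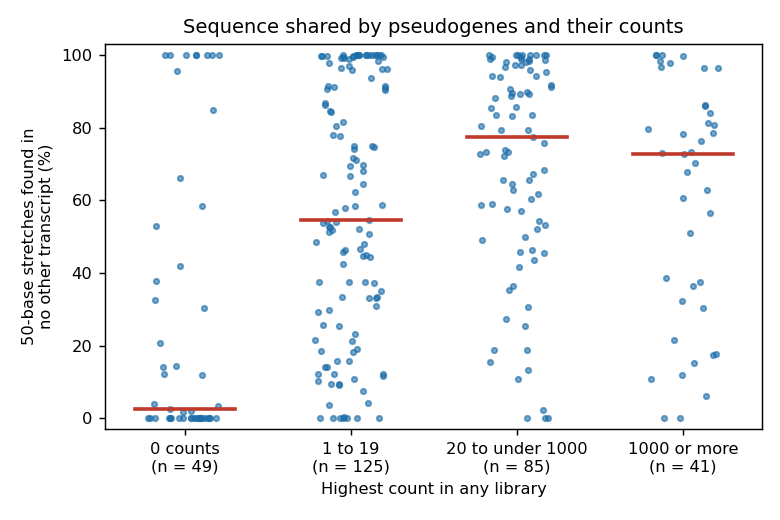
Share of 50-base stretches of each pseudogene that occur in no other transcript model (vertical, percent) by the highest count in any library (horizontal, 4 classes), with a point for each pseudogene and a red line at the median. The median is 2.59% for the 49 without a count, 54.7% at 1 to 19 counts, 77.3% from 20 to under 1000 and 72.8% at 1000 or more.

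The 3' ends of the parents were largely shared with other transcripts too. Over the last 300 bases of the parent transcript, the median share of 50-base stretches found nowhere else was 19.1% for the 14 parents under 20 counts in each deeper library and 27.5% for the other 39 of the 53 families. At least 50% of the stretches were particular to the parent in 3 of the 14 and in 8 of the 39. In some parents, among them Rpl27a, Rpl12, Rpl14 and, of the 14, Rps24, every such stretch was particular to the parent. A single transcript model was taken per parent, and other ends of its transcripts were not compared. The models of Rpl27a, Rpl12 and Rpl14 were 1158, 1242 and 1009 bases long, with coding ends at bases 520, 742 and 749.

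Pairs that carry these contrasts are shown over the end of the parent coding sequence, Rps6-ps1 for a copy with 1 differing base beside a parent with at most 3 counts, and Rpl36a-ps2 for a copy identical to its parent. The capital marks the differing base, T723C for Rps6-ps1, with the position counted from the start of the parent's coding sequence (GENCODE M21 transcript models on GRCm38, 5′ to 3′). Over its whole length Rps6-ps1 matched its parent at 733 of 747 bases.

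Rps6-ps1: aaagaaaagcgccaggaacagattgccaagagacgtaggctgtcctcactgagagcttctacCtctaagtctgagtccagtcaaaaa
Rps6: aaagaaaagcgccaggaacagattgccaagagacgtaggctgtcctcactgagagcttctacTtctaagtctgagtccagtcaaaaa
Rpl36a-ps2: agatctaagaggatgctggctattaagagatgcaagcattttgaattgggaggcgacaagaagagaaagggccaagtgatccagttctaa
Rpl36a: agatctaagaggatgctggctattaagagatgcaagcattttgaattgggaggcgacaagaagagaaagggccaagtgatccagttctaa

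Rpl36a-ps2 and Rps16-ps2 had no base that differed from their parents over 321 and 441 aligned bases, and yet had 6218 to 7932 and 2716 to 4425 counts in the deeper libraries while Rpl36a and Rps16 had at most 6 and 9. Every 50-base stretch of these copies also occurs in the parent, so which of the pair such a read belongs to cannot be read from the transcript sequence alone. Rps16-ps3, in contrast, shared no 50-base stretch with Rps16 and matched it at 403 of 441 bases. The 5 detected copies without a stretch of their own were Rpl36a-ps2, Rps16-ps2, Rpl10a-ps1, Rpl35a-ps2 and Rpl28-ps1.

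By position, detected copies lay on 20 chromosomes. Of the 126 detected, 119 had a single exon and 13 were X-linked, and 39 lay inside another gene. Among the 25 highest, 9 lay inside another gene, as Rpl36a-ps2 in Ddah1 and Rps19-ps6 in Tecpr2, both on the same strand. For copies inside a gene, reads of the copy and of an intron of that gene cannot be told apart by counting. Exons shared with another annotated gene were found in 3 detected copies (Rpl19-ps12, Rpl19-ps6 and Rpl13-ps2), none among the 25.

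The shallow library, cKO replicate 2, did not hold a scaled-down version of the others. Of the 52 pseudogenes with at least 100 counts in every deeper library, 31 had at most 8 counts there, 14 of them 0, and the other 21 had at least 29. Rpl36a-ps2 had 2 counts there, 3.52 CPM against 454 to 585 CPM elsewhere, and Rpl18-ps2 next to it in rank had 505, 888 CPM against 405 to 529 CPM. The share at 10 or fewer counts was 59.6% for these pseudogenes, 80.1% for all 6435 genes chosen the same way, 41.4% for ribosomal protein genes and 85.3% for the other -ps genes. Mitochondrial genes and the 5 choroid plexus markers summed to 22364 and 45945 CPM in that library, against 5202 to 9906 and 12.9 to 648 CPM in the others. All choroid plexus marker counts of that library were of Ttr. The part of these differences in the pseudogene levels was not tested.

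Between control and cKO samples no pseudogene passed the test with all 6 libraries, and Rpl27a-ps1 alone passed without cKO replicate 2. The edgeR filter on low counts kept 114 of the 300 in the fit of all 6 libraries and 124 in the fit of 5. It also keeps genes that are high in a single group, so counts over those kept describe them and support no direction. With all 6 libraries 0 of 114 passed at an adjusted p under 0.05 in either direction, beside 0.00779% of the 12833 genes tested in each direction. At an unadjusted p under 0.05 there were 2 lower, Rpl27a-ps1 and Rpl17-ps9, and 0 higher, beside 1.53% and 1.3% of all genes. DESeq2 gave Rpl27a-ps1 and Rpl17-ps9 no adjusted value, so neither could be called, and it called 0 of the pseudogenes with one, and limma-voom called Rpl27a-ps1. Without cKO replicate 2, edgeR called 1 of 124 lower and 0 higher, beside 0.00687% and 0.0% of 14562 genes. The 1 in both counts is Rpl27a-ps1, which had been chosen by this contrast, so nothing is read from these shares. DESeq2 called Rpl27a-ps1 and Rpl17-ps9 there. At an unadjusted p under 0.05, 9 were lower and 0 higher by edgeR without that library, beside 3.03% and 3.06% of all genes.

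Most pseudogenes kept by the filter lay below their control level. With all 6 libraries the log2 fold change was below 0 for 88 of 114 (77.2%, against 66.3% of all genes), with a median of -0.84 against -0.44 for all genes. This split depends on the scaling: it was 76 below and 38 above 0 with RLE size factors, and 60 and 54 with upper-quartile factors, where the median of all genes moved to -0.28 and -0.01. Without cKO replicate 2 it was below 0 for 99 of 124 (79.8%, against 52.1% of all genes), with a median of -0.64 against -0.06. In the same fit of 5 libraries, 38 of the 51 ribosomal protein genes kept were below 0, with a median of -0.52, and 117 of 181 other -ps genes, with a median of -0.35.

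CPM ranges of the groups did not overlap for 19 of 114 pseudogenes with all 6 libraries, all lower in cKO, beside 11.1% of all genes lower and 1.33% higher. Without cKO replicate 2 they did not overlap for 37 of 124 lower in cKO (29.8%, against 12.6% of all genes) and for 2 higher (against 13.0%). The 37 comprised 24 copies of large subunit genes and 13 of small subunit genes, and 26 of them had at least 100 counts in every control. Of the 25 highest pseudogenes, 13 were among the 37. Their log2 fold changes in the fit of 5 libraries ran from -0.82 for Rps19-ps6 to 0.05 for Rps15-ps2, and 24 of 25 were below 0. Ribosomal protein genes were lower without overlap in 21 of 51 cases (41.2%), and 0 of the 51 passed the test.

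**Figure D5:**
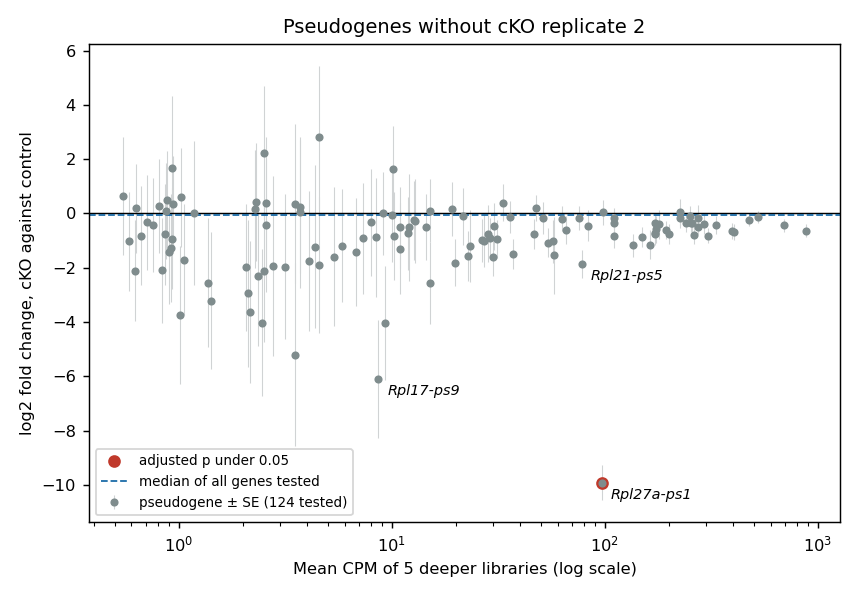
Log2 fold change of cKO against control without cKO replicate 2 (vertical, bars show the standard error) against mean CPM of the 5 deeper libraries on a log axis (horizontal) for the 124 pseudogenes tested, with the median of all genes tested as a dashed line. Rpl27a-ps1 (red) lies at -9.92, far below Rpl21-ps5 at -1.86 and the others, and Rpl17-ps9 lies at -6.10 with a standard error of 2.16.

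Rpl17-ps9 showed the pattern of Rpl27a-ps1 at a lower level. Rpl17-ps9 (ENSMUSG00000066543, chromosome 7 at 35817699 to 35818253, GRCm39) had 147, 234 and 186 counts in control pools and 2, 0 and 3 in cKO pools, and the groups did not overlap. This was 14.3 ± 3.82 against 0.133 ± 0.128 CPM (SD, n = 3). With counts and totals summed over pools, the ratio for Rpl17-ps9 was 74.5 (95% counting interval 31.7 to 230), from 5 cKO counts. Its log2 fold change was -6.27 (SE 3.01, edgeR adjusted p = 1) with all 6 libraries and -6.10 (SE 2.16, edgeR adjusted p = 0.767) without cKO replicate 2. Of its 50-base stretches 18.8% were particular to it and 80.2% occurred in Rpl17, so it shared more of them with its parent than Rpl27a-ps1 did. How far this sharing affects the count of either copy was not tested.

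These were the only 2 of 66 pseudogenes with at least 100 counts in every control that had at most 10 in both cKO replicates 1 and 3 (3.03%, beside 0.576% of 7464 genes chosen the same way). Since Rpl27a-ps1 had been chosen by this contrast, nothing is read from that share, and without it the count was 1 of 65. In the other direction there were 0 of 55, beside 0.491% of 8149 genes. Ribosomal protein genes gave 0 of 31.

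Other copies had at most 10 counts in cKO replicate 1 and more in cKO replicate 3. The pseudogenes named in this paragraph and the next were chosen after their values were seen. Of the 66 with at least 100 counts in every control, 6 had at most 10 in cKO replicate 1. Of these 6, 2 had over 100 in cKO replicate 3, Rps6-ps3 and Rps10-ps1. Rps6-ps3 had 1027, 972 and 1117 counts in control pools and 4, 1 and 634 in cKO pools. Rps10-ps1 had 240, 225 and 102 against 9, 0 and 132. Rpl30-ps9 had 221, 250 and 121 against 1, 0 and 21, below the controls in all 3 cKO libraries, while its parent Rpl30 had 7072 to 14689 counts in each deeper library. In pairs of deeper libraries of the same group, 0 to 7.25% of pseudogenes with at least 100 counts in a library had at most 10 in the other, against 4.87 to 12.3% of all genes. From a control to cKO replicate 1 this share was 12.7 to 17.1%, near the 14.2 to 15.7% of all genes. From a control to cKO replicate 3 it was 4.23 to 5.26%, near the 4.48 to 5.29% of all genes. From those 2 cKO libraries to a control it was 0 to 3.23%, against 4.52 to 12.2% of all genes.

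Rpl21-ps5 had the lowest unadjusted p after Rpl27a-ps1 without cKO replicate 2, and its direction depended on that library. It had 1681, 1699 and 974 counts in control pools and 277, 370 and 481 in cKO pools, or 123, 133 and 71.8 CPM against 19.9, 651 and 40.9 CPM. The groups did not overlap in the deeper libraries, and cKO replicate 2 was the highest of all in CPM. Its log2 fold change was 1.03 (SE 1.47, edgeR adjusted p = 1) with all 6 libraries and -1.86 (SE 0.53, edgeR adjusted p = 0.767) without cKO replicate 2. Rpsa-ps10, a copy of the gene for a small subunit protein also known as a laminin receptor, had log2 fold changes of 0.64 with all 6 libraries and -1.18 without cKO replicate 2, and did not pass the test. Higher without overlap in cKO replicates 1 and 3 were Rpl7a-ps3, with 0, 27 and 28 counts in control pools and 225, 0 and 29 in cKO pools, and Rps4l-ps, with 13, 12 and 9 against 18, 0 and 15. Neither passed the test.

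Summed over all 300 pseudogenes, the level was 11400, 13674 and 9920 CPM in control pools and 7207, 13537 and 8975 CPM in cKO pools, or 0.721 to 1.37% of a library. The groups overlapped through cKO replicate 2, and cKO replicates 1 and 3 were below all controls. The means were 11665 ± 1891 and 9907 ± 3266 CPM (SD, n = 3), with 8091 ± 1250 CPM without cKO replicate 2 (n = 2). On the log2 scale the difference of the means was -0.24, and -0.53 without that library. Copies of large and of small subunit genes differed by -0.54 and -0.51 without it. The 79 ribosomal protein genes differed by -0.52, from 22415, 25658 and 20455 CPM in the controls to 14102 and 17710 CPM in cKO replicates 1 and 3. In such bulk samples, fewer cells of a type and less RNA per cell cannot be told apart.

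Levels of other gene lists differed between the same libraries. The summed level of the 10 precursor markers was 315, 461 and 205 CPM in control pools and 194, 7.04 and 177 CPM in cKO pools. Of the 10, 4 were at 0 in all 6, and the others did not all follow the sum. C1ql1 had 1256, 3784 and 1825 counts in control pools and 282, 1 and 343 in cKO pools. Ptprz1 had 2929, 2043 and 731 against 1983, 1 and 1366. Pdgfra had 0, 59 and 56 against 155, 0 and 121. Cspg4 had 110, 1 and 174 against 273, 2 and 159. For 8 neuron markers the summed level was 7085, 5991 and 2256 CPM in control pools and 7542, 1646 and 8065 CPM in cKO pools. For 6 astrocyte markers it was 792, 1090 and 609 CPM, against 754, 682 and 553 CPM. This sum joins members that differed in direction. Gfap had 1825, 3585 and 3298 counts against 619, 0 and 230. Aldh1l1 (244, 93 and 109) and Aqp4 (43, 155 and 8) had counts in control pools only. Slc1a3 had 3379, 2857 and 900 against 6315, 388 and 3457. Gja1 had 2478, 3975 and 2840 against 1889, 0 and 1929, and Aldoc 2846, 3241 and 1108 against 1663, 0 and 891. The 5 choroid plexus markers, with Kl at 0 in all 6, summed to 211, 63.7 and 12.9 CPM in control pools and 445, 45945 and 648 CPM in cKO pools. In this sum all cKO libraries were above all controls, with a log2 difference of the means of 2.51 without cKO replicate 2. The difference was carried by Ttr, with 343, 94 and 2 counts in control pools and 5224, 26120 and 6756 in cKO pools. Aqp1 did not follow, with 2535, 717 and 172 against 972, 0 and 683. Folr1 and Clic6 had more than 1 count only in cKO replicate 3 (115 and 76). For 4 endothelial markers, with Flt1 and Ly6c1 at 0 in all 6, the sum was 22.9, 2.12 and 8.03 CPM against 22.1, 0 and 67.8 CPM. The groups overlapped. The 5 microglia markers were at 0 in all libraries but cKO replicate 3, where they summed to 5.1 CPM. The part of these lists in the pseudogene levels was not tested.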

How the data were processed

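Libraries were made from total RNA with a QuantSeq 3' mRNA-Seq FWD kit, per the labels' protocols. The authors deposited raw read counts per gene from featureCounts 2.0.0 on the Ensembl 104 annotation of GRCm39, per the file headers; no strand or multi-mapping option is named there, and the treatment of reads with several alignments is not stated in the headers. The submitters' processing notes also list FastQC, STAR and DESeq2, with no step assigned to them. Symbols were matched to 52083 of 55416 gene identifiers. Genes kept by filterByExpr were scaled by TMM and tested with glmQLFit (robust) and glmQLFTest in edgeR 4.0.16 under R 4.3.3, two-sided, with Benjamini-Hochberg adjustment over all genes tested; the standard error was the log2 fold change over the root of F. CPM used library totals. Alternatives used limma 3.58.1, DESeq2 1.42.0, other scalings and filters, the replicate number as a block, and each library left out. Transcript sequences came from GENCODE M21 (GRCm38) by gene identifier, aligned with Biopython 1.88. Named were Rpl27a-ps1, the 25 highest detected pseudogenes, and any past adjusted p 0.05 in either fit or unadjusted p 0.05 in all 6 libraries, with parents; 4 of the 25 are not reported here. The members and lists were chosen with earlier results of these data known. The edgeR test was checked on simulated data in which libraries differed only by total, set changes and random spread. cKO replicate 2 was not such a library, so the check does not cover it.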

Additional observations from a re-analysis of the deposited data

How the results depend on the processing

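With all 6 libraries the number of genes called was 2, and it was 16 with RLE size factors, 0 with upper-quartile factors, 5 by DESeq2, 14 by limma-voom and 23 without a filter. Leaving out each library gave 1 to 7, with 7 without cKO replicate 1, 4 without cKO replicate 3 and 1 without any of the others. The number of pseudogenes called was 0, with 1 by limma-voom and 0 to 1 over the libraries left out, the 1 being Rpl27a-ps1 without cKO replicate 2. Without that library it was 1, and 2 with DESeq2. To look for pairing, the group mean of each gene was subtracted from log CPM and the remainders of control and cKO libraries were correlated. These correlations were low for same-numbered libraries (0.0791, 0.0511 and 0.0112), beside -0.0677 to 0.013 for the other pairs. With 3 pools a group they cannot settle whether the replicate numbers pair the samples. With the replicate block 1 gene and 0 pseudogenes were called. Without cKO replicate 2 the block gave 0 pseudogenes called, and Rpl27a-ps1 had an edgeR adjusted p of 0.0982. Detected pseudogenes numbered 126, and 59 after thinning to the shallowest total.

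Of 299 alternative log2 fold changes of 23 named pseudogenes, 28 turned direction, none of them of a value that passed the test, and none of Rpl27a-ps1 or Rpl17-ps9. RLE, upper-quartile and DESeq2 scaling gave 0.85, 4.09 and 0.84 for Rpl26-ps6, 0.69, 3.96 and 0.68 for Rps16-ps3, 1.08, 4.47 and 1.07 for Rpl10a-ps2, and 0.25, 3.34 and 0.24 for Rpl30-ps2. Limma-voom gave -0.23 for Rpl18-ps2, -0.55 for Rps6-ps1, -0.46 for Rpl19-ps3, -0.34 for Rps26-ps1, -0.29 for Rpl7a-ps12 and -0.26 for Rpl12-ps2. Over the libraries left out, values ran from -0.44 to 0.04 for Rpl26-ps6, -0.23 to 0.30 for Rpl18-ps2, -0.65 to 0.99 for Rps6-ps1, -0.39 to 0.73 for Rpl19-ps3, -0.78 to 0.27 for Rpl10a-ps2, -0.35 to 0.84 for Rps26-ps1, -0.58 to 0.84 for Rpl7a-ps12 and -0.37 to 1.07 for Rpl12-ps2. The cause was not tested.

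With 3 pools a group and 1 shallow library, the median standard error of the pseudogenes' log2 fold changes was 1.77 with all 6 libraries and 1.43 without cKO replicate 2. The log2 difference of the summed level, -0.24, ran from -0.53 without cKO replicate 2 to -0.05 without cKO replicate 1. The difference in the share of copies against parents, -0.347 percentage points, ran from -1.9 without cKO replicate 2 to 0.589 without cKO replicate 1, and was also above 0 without control replicate 3 (0.302) and without cKO replicate 3 (0.268). These moves were under the larger group SD, but that of the share without cKO replicate 2 was above the control SD of 1.14 points. Reads of near-identical copies, of genes around a copy and of antisense genes cannot be told apart in these counts.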
